A study of Mus musculus with 384 samples.

Results

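Ngfr, the gene of the low-affinity neurotrophin receptor p75NTR, was examined across the 4 cell lines of the series, with most attention to AF32, the EpiSC line in AF. The gene is 1 of 31617 in the count table. It was chosen by its measured levels, which were known from the same cells to be much higher in AF32, so its levels by line and the genes that go with it are given as a description with no test. Single-cell RNA-seq by Smart-seq2 covered 384 mouse cells, 96 from each line, sorted into wells. The FS lines 5ar1 and 5ar2 are formative stem cells grown in AloXR (A3XR in the labels), which contains a low dose of activin A, the tankyrase inhibitor XAV939 and the retinoic acid receptor inverse agonist BMS493. The EpiSC line AFX6, of primed cells, was grown in AFX (activin A, Fgf2 and XAV939), and the primed line AF32 in AF (activin A and Fgf2 without XAV939). All media were made in N2B27 and all cultures kept on fibronectin. No line carried a labelled mutation or transgene.

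AF and AFX each had 1 line, so line and medium cannot be told apart, and the cells of a line are not replicates of its medium. Cells with at least 3000000 counts were kept. They were 90 of 5ar1, 90 of 5ar2, 66 of AFX6 and 80 of AF32, or 326 in all, with 3022666 to 6686007 counts each. The pluripotency factor Pou5f1 was above 5 CPM (counts per 1000000 counts of a cell) in 78 of 80 AF32 cells. Of 4 extraembryonic endoderm markers, Gata4, Sox17 and Sox7 had no counts in AF32 and Gata6 was above 5 CPM in 2 cells, up to 36.8 CPM. Of 4 trophoblast markers, Elf5 had no counts, Tfap2c was above 5 CPM in 0 cells and Hand1 in 1, while Krt7, a keratin of simple epithelia, was above 5 CPM in 13 cells, up to 71.0 CPM, and stood at 6.01 CPM over the line (1.66 CPM in AFX6). In 4 AF32 cells the Y-linked genes were at or under 5 CPM, unlike the rest of the line, and results were also computed without them.

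p75NTR is a member of the TNF receptor superfamily with an intracellular death domain. It binds all neurotrophins and their precursor forms, works with Trk tyrosine kinases or with sortilin as co-receptor, and is cut by ADAM metalloproteases and then by gamma-secretase. It is a classical surface marker of migrating neural crest cells and of Schwann cell precursors, and is not one of the genes by which pluripotent cells are usually recognised.

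Ngfr (ENSMUSG00000000120) lies on the minus strand at chr11:95568818-95587735 of GRCm38. GENCODE M21 gives it 1 transcript of 6 exons, 3446 bases in all, and 0 genes overlap it on either strand, so its counts cannot come from an overlapping gene. The 250 bases upstream of the transcript start in RefSeq (GRCm38.p6, chr11:95587699-95587948, written 5′ to 3′ on the minus strand) are shown as the sequence around the start of the transcript that some AF32 cells held in quantity and others lacked. GENCODE places that start farther upstream, so that the last 37 bases of the window, with 1 of its GC boxes, lie inside the GENCODE transcript. Capitals mark GGGCGG, the GC box, or its complement CCGCCC.

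Ngfr promoter: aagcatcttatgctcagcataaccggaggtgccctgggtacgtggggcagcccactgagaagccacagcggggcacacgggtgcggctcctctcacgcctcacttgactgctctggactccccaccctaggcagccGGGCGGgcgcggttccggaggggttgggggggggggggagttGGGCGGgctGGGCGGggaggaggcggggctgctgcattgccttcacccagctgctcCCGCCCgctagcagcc

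The window held 4 GC boxes counted on both strands, and 4.11% of 27025 RefSeq promoters of the same length held as many. At least 1 was present in 32.9% of them. It contained 16 CG dinucleotides, against a median of 6, and 70.4% of its bases were G or C. The data measure RNA only, and nothing in them reads this sequence.

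In the kept AF32 cells Ngfr ranged from no count to 1021 CPM, with a median of 9.94 CPM and a mean of 113 ± 203 (SD, 80 cells). The distribution had 2 parts with few cells between them. At or under 1 CPM were 37 cells, of which 9 had no count and 28 had 1 to 3 counts, and these can hardly be separated at this depth, since 3 counts equal 0.477 to 0.992 CPM. Another 4 cells had 2.33, 3.27, 6.07 and 13.8 CPM. The remaining 39 had at least 38.3 CPM. Thus 41 AF32 cells (51.25%, exact 95% CI 39.8% to 62.6%) were above 5 CPM, 34 (42.5%, 31.5% to 54.1%) above 50 CPM and 14 (17.5%, 9.91% to 27.6%) above 200 CPM. The cells next to these limits had 3.27 and 6.07, 48.7 and 54.1, and 198 and 207 CPM. The intervals cover counting error only. Cells above 5 CPM held 99.86% of the 41488 Ngfr counts of the line, and the 14 highest cells held 71.3%.

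**Figure D1:**
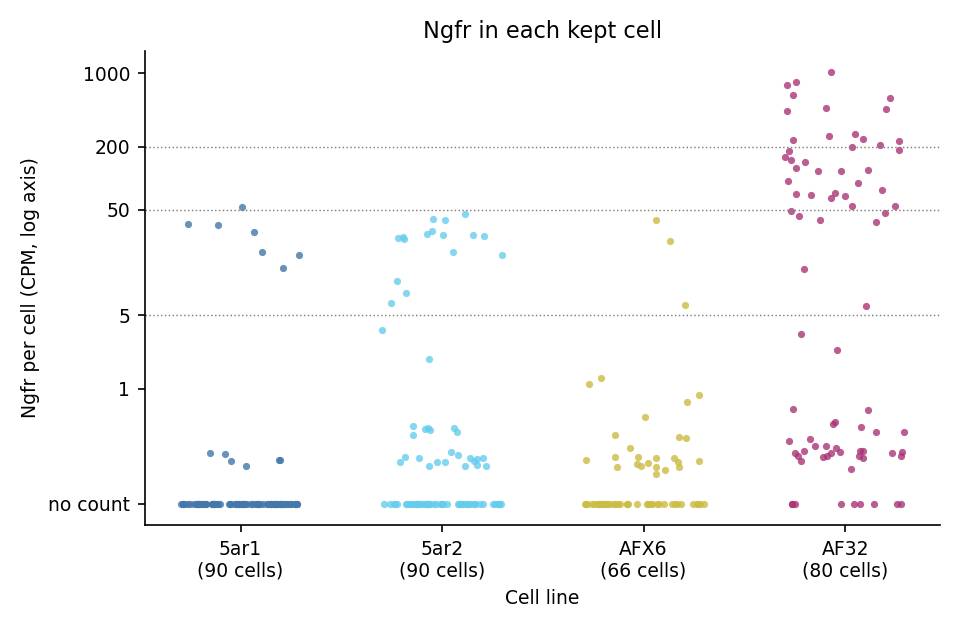
Ngfr in CPM (log axis, with cells without a count on the lowest line) in each kept cell of the 4 lines. Each point is 1 cell, and the dotted lines stand at 5, 50 and 200 CPM. AF32 cells form an upper group that starts at 38.3 CPM and a lower group at or under 1 CPM, while cells of the other lines reach 53.7 CPM at most.

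The other lines had Ngfr in few cells and at lower levels. In 5ar1 the median was 0 CPM, the highest cell had 53.7 CPM, and the mean was 2.35 ± 8.84 (SD, 90 cells). In 5ar2 the median was also 0 CPM, with a highest cell at 45.6 CPM and a mean of 4.79 ± 11.0 (SD, 90 cells). In AFX6 the median was 0 CPM, the highest cell had 39.9 CPM and the mean was 1.22 ± 5.79 (SD, 66 cells). The 3 lines therefore overlapped with the lower part of AF32 and with the lower end of its upper part. Above 5 CPM were 7 of 90 5ar1 cells (7.78%, 3.18% to 15.4%), 16 of 90 5ar2 cells (17.8%, 10.5% to 27.3%) and 3 of 66 AFX6 cells (4.55%, 0.947% to 12.7%). The intervals of these 3 shares overlap one another, and all lie below that of AF32, for whose levels the gene was chosen. They cover counting error over the cells of 1 line each, so this is no test of a difference between lines. Only 1 cell of the 3 lines, in 5ar1, was above 50 CPM. None was above 200 CPM, which for 0 of 66 cells of AFX6 allows up to 5.44% and for 0 of 90 cells up to 4.02% (upper exact limits).

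By summed counts, Ngfr stood at 117 CPM in AF32, 4.78 CPM in 5ar2, 2.50 CPM in 5ar1 and 1.29 CPM in AFX6. AF32 was 24.4-fold above 5ar2 (exact conditional 95% interval 23.4 to 25.5), 46.6-fold above 5ar1 (43.8 to 49.5) and 90.6-fold above AFX6 (82.4 to 99.9). These intervals rest on reads, which carry no molecular identifiers, and not on cells or lines. The 14 highest cells held 71.3% of the AF32 counts, and such spread between cells is not in the intervals. Both the share of cells with Ngfr and the level in such cells were lower outside AF32. The median in cells above 5 CPM was 125 CPM in AF32, against 30.6 CPM in 5ar1, 28.0 CPM in 5ar2 and 25.4 CPM in AFX6.

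In cells at or under 5 CPM the mean was 0.365 CPM in AF32, 0.155 CPM in 5ar2, 0.139 CPM in AFX6 and 0.0155 CPM in 5ar1. For scale, the Y-linked genes Ddx3y, Eif2s3y, Kdm5d and Uty, which were near 0 in AFX6, had there 0.293% of the mean they had across the cells of 5ar1, 5ar2 and AF32. The same share of Ngfr in the remaining lines would give 0.110 CPM in AFX6, 0.119 CPM in 5ar1 and 0.116 CPM in 5ar2. The value of AFX6 and that of 5ar2 lay somewhat above these levels and that of 5ar1 below its own. The means include single higher cells, up to 3.59 CPM in 5ar2 and 1.26 CPM in AFX6. Within AF32, the same share of the line’s own mean would give 0.333 CPM, against 0.365 CPM in its cells at or under 5 CPM. That mean is raised by the cells at 2.33 and 3.27 CPM. All other cells in it had 0.643 CPM or less. Whether RNA from other wells gave these low counts was not tested.

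The 16 AF32 cells under the depth threshold, which played no part in the counts above, included 5 above 5 CPM and 2 above 50 CPM, with a highest value of 229 CPM. Of 42 such cells in the other lines, 1 of 5ar1 was above 5 CPM, at 7.10 CPM.

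Ngfr had the largest fold of AF32 over the highest other line of all 5050 genes with at least 50 CPM in a line. At least 10-fold were 2 genes, 0.0396% of those compared, and this share is printed as background only because the gene was chosen on this contrast. The other gene was Pdlim4, a PDZ and LIM domain protein of the actin cytoskeleton, also on chromosome 11, at 109 CPM in AF32 against 8.51 CPM in 5ar2 (12.8-fold). Among the 10 largest were also the streak ligand Fgf8 (8.84-fold), 6330403K07Rik on chromosome 11 (8.41-fold), the matricellular Ccn2 (7.55-fold) and the transcription factor Sox9, on chromosome 11 (6.10-fold). Lefty1, an inhibitor of Nodal, stood at 5.56-fold, 9530068E07Rik on chromosome 11 at 5.24-fold and Fam210b at 4.91-fold. Between AF32 cells these 8 genes did not share one relation to Ngfr. Their Spearman's rho with it ran from −0.22 for Ccn2 to 0.37 for Lefty1, which is expressed in every AF32 cell and had a median of 4511 CPM in the 41 cells above 5 CPM of Ngfr and 2253 CPM in the other 39.

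The cell-to-cell spread of Ngfr was large for its level. The gene was chosen for its levels in these same cells, so its rank here is a description only. Its coefficient of variation (SD over mean) in AF32 was 1.79, higher than that of 99.1% of the 3029 genes whose mean lay within 2-fold of it, whose median was 0.794. At or under 1 CPM were 46.25% of AF32 cells, against a median of 10.0% for those genes. A pattern with at least 40% of cells at or under 1 CPM and at least 40% above 50 CPM was shared by 73 of the 7215 other genes averaging 20 CPM or more in AF32 (1.01%). The 2 limits of 40% lie just under the shares of Ngfr itself, 46.25% and 42.5%. Most of the 73 genes did not go with Ngfr from cell to cell. Among them the highest rho was 0.37, for the neuronal adhesion molecule Nrcam, followed by 0.29 for the tubulin gene Tubb4a.

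The genes around Ngfr did not share its difference between the EpiSC lines. On the side downstream of its 3′ end, Nxph3 lay 54.2 kb away with 0.492 CPM in AF32 and 0.926 CPM in AFX6. The ubiquitin ligase adaptor Spop, at 75.4 kb, had 160 CPM in AF32 and 104 CPM in AFX6. Slc35b1, Fam117a and the acetyltransferase gene Kat7 lay farther on that side, at 95.7, 4.25 and 183 CPM in AF32 and 63.9, 7.17 and 159 CPM in AFX6. On the other side the prohibitin gene Phb, at 79.2 kb, had 265 CPM in AF32 and 182 CPM in AFX6. Beyond it Zfp652 had 11.5 CPM in AF32 and 13.4 CPM in AFX6, and Abi3 had 0.652 and 0.719 CPM. Phospho1 was at or near no count in both lines, and B130006D01Rik was not analysed here. The folds of AF32 over AFX6 thus lay between 0.531 and 1.54 for the 8 neighbours above the floor, against 90.6 for Ngfr. Their rho with Ngfr between AF32 cells lay between −0.18 and 0.27, the highest being that of Phb.

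Chromosome 11, on which Ngfr lies, has raised expression as a whole in most AF32 cells, so the gene was set against it. For each cell the mean over the protein-coding genes of a chromosome, each relative to its own mean over all kept cells, was set against the cell’s median over its 19 autosomes. Ngfr was left out, and a ratio above 1.2 is called raised here. Chromosome 11 was raised in 66 AF32 cells, 36 of which were above 5 CPM of Ngfr (54.5%, 41.8% to 66.9%), against 5 of the other 14 (35.7%, 12.8% to 64.9%). These intervals overlap. Across the 80 cells rho between Ngfr and the chromosome 11 ratio was 0.17. In 5ar1, 11 cells had chromosome 11 raised and none of them was above 5 CPM. In AFX6 it was 1 of 9 cells. Raised chromosome 11 was thus found with and without Ngfr in AF32, and mostly without it elsewhere.

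Other chromosomes that vary between AF32 cells went against Ngfr. The rho over the 80 cells was −0.37 for chromosome 2, −0.37 for chromosome 8 and −0.34 for chromosome 19. Chromosome 8 was raised in 41 cells, of which 14 were above 5 CPM of Ngfr (34.1%, 20.1% to 50.6%), against 27 of the 39 others (69.2%, 52.4% to 83.0%). For chromosome 19 it was 3 of 18 cells (16.7%, 3.58% to 41.4%) against 38 of 62 (61.3%, 48.1% to 73.4%), and for chromosome 2, 8 of 29 (27.6%, 12.7% to 47.2%) against 33 of 51 (64.7%, 50.1% to 77.6%). Chromosome 10, also raised in 18 cells, showed no such difference, with 9 of 18 (50.0%) against 32 of 62 (51.6%). Among the other autosomes the largest rho was 0.36, for chromosome 6, which was raised in 2 cells only.

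**Figure D2:**
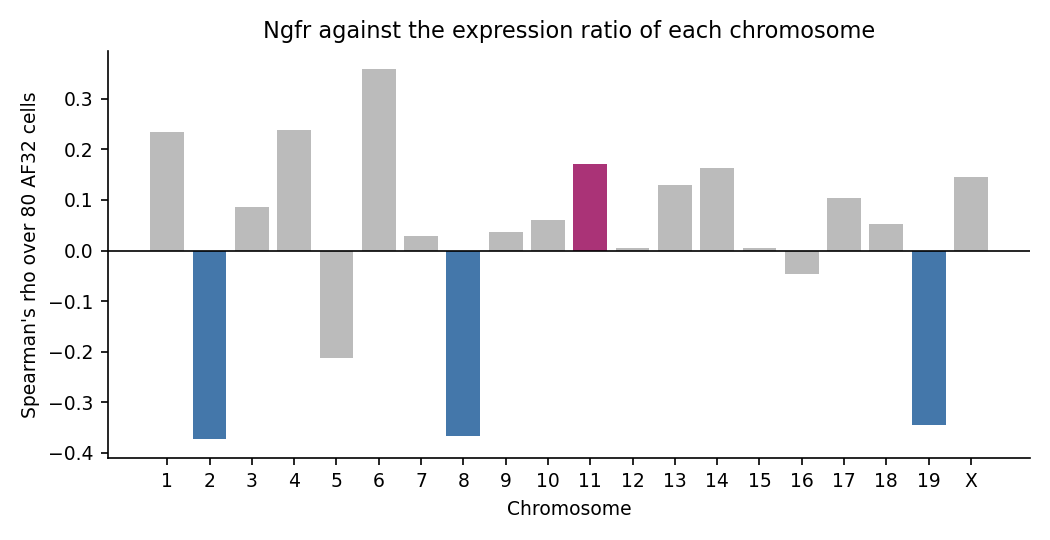
Spearman's rho over 80 AF32 cells between Ngfr in CPM and the expression ratio of each chromosome, with Ngfr left out of chromosome 11. Bars for chromosomes 2, 8 and 19 (blue) reach −0.37, −0.37 and −0.34, and that of chromosome 11 (purple) stands at 0.17.

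The combination of raised chromosomes separated the cells further. With chromosome 11 raised and none of 2, 8 and 19, 23 of 26 cells were above 5 CPM (88.5%, 69.8% to 97.6%), with values from no count to 1021 CPM and a median of 134 CPM. With all of 2, 8, 11 and 19 raised it was 3 of 18 cells (16.7%, 3.58% to 41.4%), with a median of 0.252 CPM and a highest cell at 229 CPM. The intervals of these groups, the highest and the lowest of 5, do not overlap. They cover counting error over cells of 1 line, so this is no test. Chromosomes 2, 8 and 19 had the lowest rho of the autosomes in the same cells, so the grouping rests on the same values. Between the highest and the lowest group lay the cells with 8 and 11 raised, 6 of 12 (50.0%, 21.1% to 78.9%), and those with 2, 8 and 11, 4 of 9 (44.4%, 13.7% to 78.8%). With none of the 4 chromosomes raised it was 3 of 11 (27.3%, 6.02% to 61.0%), with a highest cell at 67.9 CPM. The median number of detected genes in these 5 groups was between 10124 and 10450, and the median depth between 4088177 and 4926051 counts. Over all AF32 cells, rho of Ngfr was 0.23 with the total count and 0.19 with the number of detected genes. After thinning to 1000000 counts, 92.0% of cells with chromosome 11 but not 2, 8 or 19 raised were above 5 CPM (88.5% before). With chromosome 2, 8 or 19 raised it was 36.4% (34.9% before). Beyond the settings given at the end, the part of depth and detected genes in the result was not tested.

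**Figure D3:**
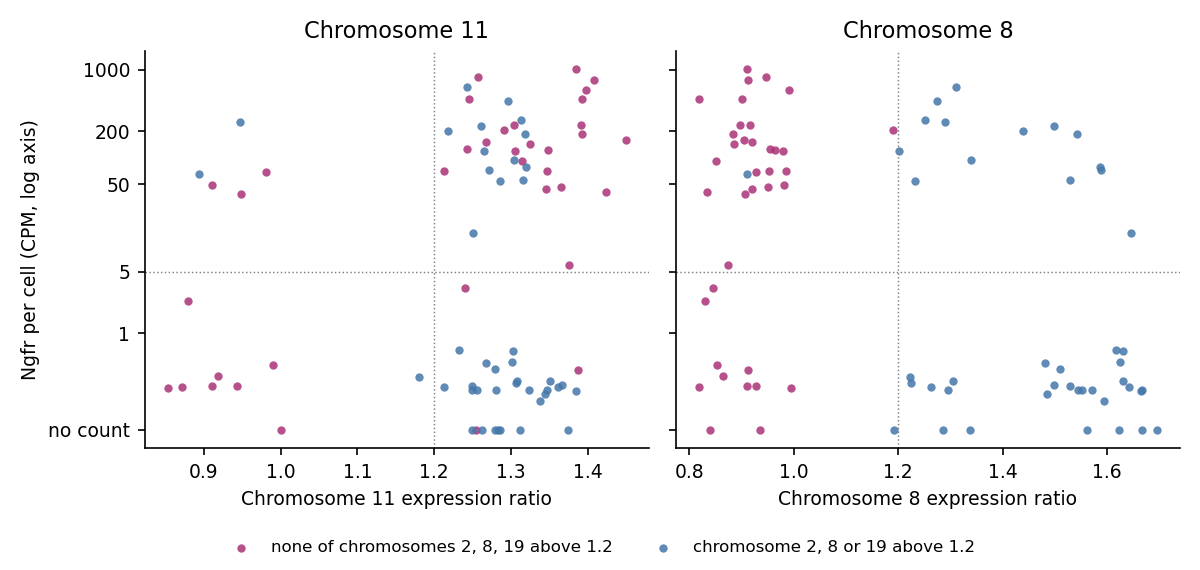
Ngfr in CPM (log axis, cells without a count on the lowest line) against the expression ratio of chromosome 11 (left) and chromosome 8 (right) in 80 AF32 cells. Dotted lines mark a ratio of 1.2 and 5 CPM. Cells with none of chromosomes 2, 8 and 19 raised (purple) and chromosome 11 above 1.2 are above 5 CPM in 23 of 26 cases.

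**Figure D4:**
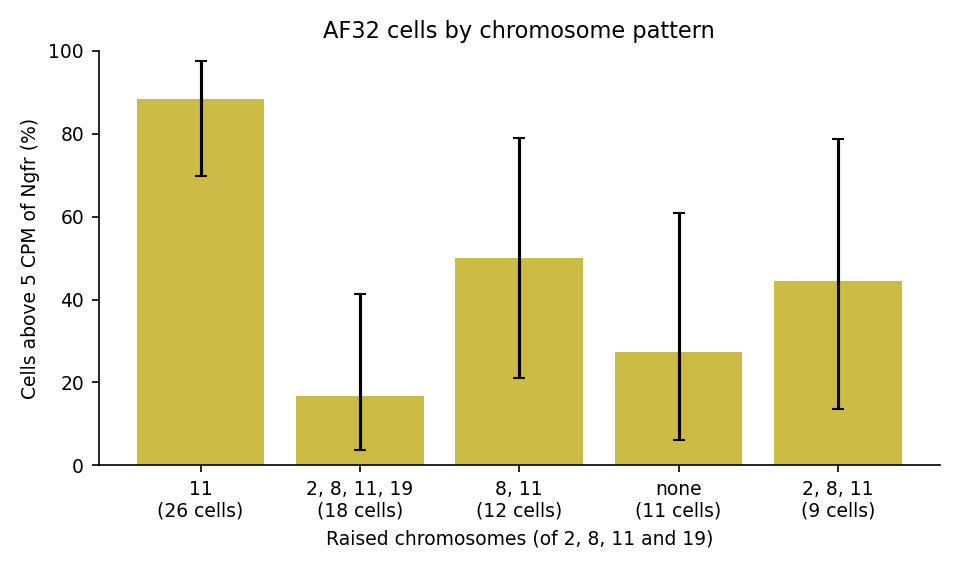
Share of AF32 cells above 5 CPM of Ngfr (bars, percent) with exact 95% intervals (error bars), by which of chromosomes 2, 8, 11 and 19 were raised, for the 5 patterns with at least 9 cells. The bar for chromosome 11 alone stands at 88.5% and that for all 4 at 16.7%.

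The difference lay in whether a cell had Ngfr more than in how much. Within the 41 cells above 5 CPM, rho was −0.01 with chromosome 8, −0.22 with chromosome 2, −0.16 with chromosome 19 and 0.13 with chromosome 11. Of the 8 cells with the most Ngfr all had chromosome 11 raised, 2 had chromosome 8 raised and none had 2 or 19. Of all 41 cells above 5 CPM, 36 had chromosome 11 raised, 14 had 8, 8 had 2 and 3 had 19. Counts in 8 cells this close to those shares say little. The difference by chromosome 2, 8 or 19 was not seen in the few shallow cells. Of 13 AF32 cells with 500000 to 3000000 counts, 2 of 6 with chromosome 2, 8 or 19 raised were above 5 CPM, and 2 of 7 without. The 4 AF32 cells low in Y-linked genes had Ngfr at 0, 0.318, 94.6 and 267 CPM, so they fell in both parts.

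The genes that went with Ngfr from cell to cell were spread over the genome. Of the same 7215 genes, 101 had a rho of at least 0.3 with it (1.4%) and 63 a rho of at most −0.3 (0.873%). On chromosome 11 it was 9 of 666 genes at the upper end (1.35%) and 0 at the lower, and off it 92 of 6549 (1.40%) at the upper end. The shares on and off chromosome 11 were nearly equal, and the median rho was 0.04 on chromosome 11 and 0.00 elsewhere. At the lower end 25 of the 63 genes lay on chromosome 8, 15 on chromosome 2 and 4 on chromosome 19. These were 5.42% of 461, 2.48% of 605 and 1.54% of 259 genes there, against 0.873% of all genes. With the ratios of chromosomes 2, 8, 11 and 19 held constant as a partial correlation, 53 genes were at or above 0.3 and 36 at or below −0.3.

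The highest rho, 0.56, belonged to 1700003F12Rik, at chr2:154547085-154550003 of GRCm38, a gene of uncharacterised function. It ranged from 0 to 126 CPM in AF32 with a median of 18.1 CPM, was 0.52 given the 4 ratios, and 0.46 within the 41 cells above 5 CPM of Ngfr. It overlaps Necab3, and the counting used here does not show which of the 2 gave the reads. It was followed off chromosome 11 by D10Jhu81e (0.44), the acyl-CoA binding protein gene Dbi (0.44), Tbrg1 (0.43), the glycolytic enzyme Pkm (0.43) and Smad7, an inhibitory Smad induced by Nodal and TGF-beta signals (0.42). The imprinted non-coding RNA gene Rian (0.42), the fatty acid desaturase Scd2 (0.42), the selenium carrier Selenop (0.41) and Cnot2, of the deadenylase complex (0.39), completed the 10. Selenop, from 0 to 325 CPM, had the highest value of these within the cells above 5 CPM of Ngfr (0.64, 41 cells), while that of Dbi was 0.15 there and that of Pkm also 0.15. Rian, Tbrg1, Pkm, Scd2, Selenop and Cnot2 also overlap other annotated genes.

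On chromosome 11 the highest were Prkar1a, a regulatory subunit of protein kinase A (0.39), Pik3ip1, an inhibitor of PI3 kinase (0.37), the small GTPase Rnd2 (0.35), Pigs (0.35) and the matrix protein Mfap4 (0.34). Mfap4 ranged from 0 to 3240 CPM with a median of 92.6 CPM, and 61 AF32 cells were above 5 CPM of it, 37 of them also above 5 CPM of Ngfr. Prkar1a and Pigs lost the relation within the cells above 5 CPM of Ngfr (−0.021 and −0.10). The lowest were Eif3j2 (−0.42) on chromosome 18, Trir (−0.42) and the mitochondrial carrier Slc25a4 (−0.41) on chromosome 8, and the COP9 subunit Cops2 (−0.42) and Zfp106 (−0.42) on chromosome 2.

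**Figure D5:**
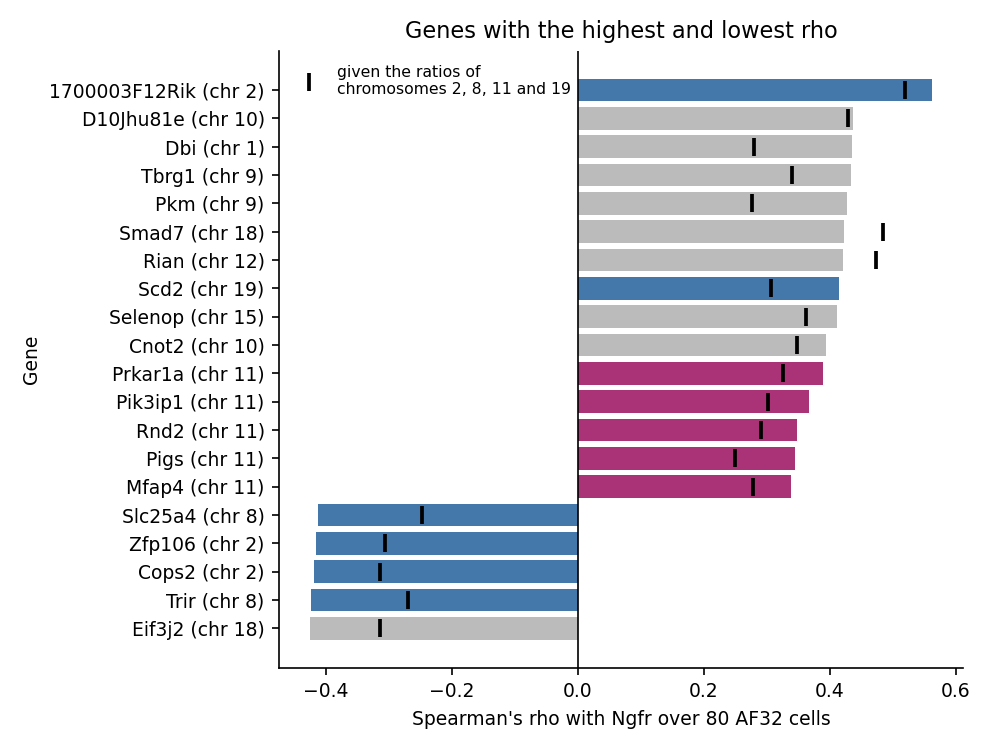
Spearman's rho with Ngfr over 80 AF32 cells (bars) for the 10 highest genes off chromosome 11, the 5 highest on it and the 5 lowest, and the partial rho given the ratios of chromosomes 2, 8, 11 and 19 (ticks). Purple bars are on chromosome 11, blue on 2, 8 or 19, and grey elsewhere. The values run from −0.42 for Eif3j2 to 0.56 for 1700003F12Rik.

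In cells that did not serve to choose them, these genes showed little. Of the 10 genes off chromosome 11, rho with Ngfr was above 0 for 8 in 5ar1, 5 in 5ar2 and 8 in AFX6, where about as many of all genes tested lay on each side (50.5%, 50.9% and 51.1% above 0). Their medians were 0.05, −0.01 and 0.10 over 90, 90 and 66 cells. For all 101 genes the share above 0 was 48.5%, 50.5% and 58.4%. In the 13 shallow AF32 cells 6 of the 10 were above 0, against 81.8% of all genes. Ngfr was above 5 CPM in only 3 to 16 cells of each of these sets, so a relation of moderate size was hardly detectable there.

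The partners of p75NTR were set beside it by line, as levels summed over cells. Over 2-fold higher in AF32 than in AFX6 were 13.1% of the 11260 genes that reached 5 CPM in AF32 or AFX6, and over 2-fold lower 8.29%, with a median log2 fold of 0.11. Of the 4 neurotrophin ligands only Bdnf reached 5 CPM, with 8.13 CPM in AF32, 5.43 CPM in AFX6, 5.72 CPM in 5ar2 and 14.7 CPM in 5ar1. It was above 5 CPM in 15 AF32 cells, 7 of which were also above 5 CPM of Ngfr. Ntf3, the gene of neurotrophin-3, had no counts in AF32, which allows up to 0.00843 CPM over the line (3 counts), and Ntf5 had 1.46 CPM. RNA of neurotrophin-3, a ligand of p75NTR, was therefore not detectable at this depth in the line with the most Ngfr RNA. Neither protein was measured.

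Of the 10 receptors and co-receptors, 4 were tested and 0 differed by over 2-fold in either direction. Trk receptors were low. Ntrk2, the receptor of Bdnf, had 7.92 CPM in AF32 and 4.98 CPM in AFX6 and was above 5 CPM in 8 AF32 cells, 5 of them also above 5 CPM of Ngfr. Ntrk3 had 2.34 CPM in AF32 and was above 5 CPM in 4 cells, below the level at which genes were compared. Per kilobase of exon, Ngfr stood at 33.8 CPM in AF32, Ntrk2 at 0.411 and Ntrk3 at 0.0776. The length used joins all annotated exons of a gene, 3446 bases for Ngfr, 19292 for Ntrk2 and 30170 for Ntrk3. The gap to Ngfr is therefore wider per kilobase than by CPM. The pro-neurotrophin co-receptor sortilin, Sort1, was present in all lines at 17.5 to 29.2 CPM, with the highest value in AF32. Its relative Sorcs1 had 5.28 CPM in AF32 and 10.8 CPM in 5ar2. Nradd, a death-domain protein similar to p75NTR, had 54.4 CPM in AF32 and 33.3 to 43.2 CPM in the others. Per kilobase it reached 29.9 CPM in AF32, close to the 33.8 CPM of Ngfr, but without following it between cells (rho −0.09).

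Of the 16 intracellular partners all were tested, 2 were over 2-fold higher and 0 lower, with a median log2 fold of 0.22. The 2 were Ndn, the imprinted necdin (106 CPM in AF32 and 23.1 CPM in AFX6), and the adaptor Traf6 (25.6 and 11.2 CPM). In the FS lines Ndn stood at 104 and 92.1 CPM, so its level in AF32 was that of FS cells. The death-domain interactor Bex3 had 612 CPM in AF32 and 626 CPM in AFX6, and its relative Bex1 274 and 413 CPM. The MAGE protein Maged1 had 371 CPM in AF32 and 262 CPM in AFX6. The GTPases Rhoa and Rac1 and the GTPase inhibitor Arhgdia stood at 249, 270 and 555 CPM in AF32, and at 294, 213 and 459 CPM in AFX6. Traf2, Irak1, Ripk2, Prdm4, Zfp110, Zfp369, Kidins220 and Mapk8 lay between 6.78 and 51.5 CPM in AF32 and within 2-fold of AFX6.

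Of the 8 enzymes that process neurotrophins or the receptor, 1 was over 2-fold higher and 1 lower. Adam10, a metalloprotease that sheds surface proteins, had 35.4 CPM in AF32 against 5.05 CPM in AFX6, 10.8 CPM in 5ar1 and 8.66 CPM in 5ar2. It was above 5 CPM in 50 AF32 cells, 29 of which were also above 5 CPM of Ngfr. Adam17, the sheddase best known for p75NTR, had 31.5 CPM in AF32 and 28.7 CPM in AFX6. Psen2, of gamma-secretase, was lower (12.2 and 28.6 CPM), while the subunits Ncstn, Aph1a and Psenen and the proprotein convertase Furin were within 2-fold.

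Other receptors of the TNF family did not share the difference. Of 14 with a row, 10 were tested, 1 was over 2-fold higher and 5 lower, with a median log2 fold of −1.35. The lower ones were Tnfrsf12a (21.9 CPM in AF32 and 97.5 CPM in AFX6), Tnfrsf10b (8.52 and 30.3), Eda2r (6.64 and 33.1), Tnfrsf1b (3.91 and 14.7) and Fas (0.0141 and 7.79). Cd40 was the higher one, at 70.4 CPM in AF32 and 33.6 CPM in AFX6. It was above 5 CPM in 45 AF32 cells, 27 of which were above 5 CPM of Ngfr, with a rho of 0.25. Tnfrsf1a, Ltbr, Tnfrsf21 and Relt were within 2-fold, and Tnfrsf19 did not reach 5 CPM in either EpiSC line, with 9.58 CPM in 5ar2. Tnfrsf11b was not analysed here. Of these pathway lists no member had a rho above 0.3 or below −0.3 with Ngfr between AF32 cells. Psen2 at 0.28 and Tnfrsf1a at −0.27 were the farthest from 0. Of the 7215 genes averaging 20 CPM or more, only 1.4% reached 0.3 and 0.873% reached −0.3, so their absence from short lists says little.

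Since p75NTR is known as a neural crest marker, genes of neural crest and of other lineages were counted in the same cells. Of 7 neural crest genes tested, 3 were over 2-fold higher in AF32 and 0 lower, among them Sox9 and, through 1 cell, Pax3. Of all 11260 genes compared, 13.1% were over 2-fold higher and 8.29% lower. Sox10, a defining transcription factor of migrating crest, was above 5 CPM in 4 AF32 cells, each also above 5 CPM of Ngfr, and reached 39.3 CPM. Pax3 was above 5 CPM in 1 cell, at 547 CPM, and that cell had 0.390 CPM of Ngfr. It was also the only AF32 cell above 5 CPM of Tfap2a. Foxd3 was above 5 CPM in 27 cells, 14 of them with Ngfr above 5 CPM, and Snai2 in 10 cells, 5 of them with Ngfr. Sox9, on chromosome 11, was above 5 CPM in 45 cells, 26 of them with Ngfr. The 41 cells with Ngfr thus mostly lacked Sox10 and Pax3. The farthest rho values of the list were −0.21 for Msx2, 0.14 for Sox10 and −0.12 for Msx1. Msx2 was above 5 CPM in 3 AF32 cells and Msx1 in 0, so these values rest on very few counts. Tfap2b was not analysed here.

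The same background, 13.1% higher and 8.29% lower, holds for the lists that follow. Among primitive streak genes 4 of 6 tested were over 2-fold higher in AF32 and 0 lower, with rho values up to 0.21 for T and Lhx1 and down to −0.16 for Foxa2. Of the higher ones, Tbx6 was above 5 CPM in 9 AF32 cells and Foxa2 in 13. The streak factor T was above 5 CPM in 2 cells, of which 1 had Ngfr above 5 CPM, and the cell with most T, at 2369 CPM, had 0.172 CPM of Ngfr. Of neural genes 3 of 4 were higher and 0 lower (rho −0.21 for Pax6, 0.20 for Ncam1, −0.12 for Hes5), and of Wnt targets 2 of 4 and 0 (rho 0.24 for Sp5, 0.22 for Ccnd1, −0.14 for Nkd1). The higher neural genes included Olig3, above 5 CPM in 8 AF32 cells, and Sox1, in 16. BMP and Id genes had 4 of 7 higher and 1 lower, with Smad7 the only one above a rho of 0.3, and 0.16 for Id3 and −0.12 for Smad6. Adhesion and EMT genes had 4 of 7 higher and 3 lower (rho 0.25 for Zeb1, −0.17 for Cdh1, 0.09 for Fn1). Values of this size across 80 cells, many without a count of the gene, are no more than a description. Sp5 was above 5 CPM in 1 AF32 cell, and Pax6 and Hes5 in 2 each. None of these genes reached 5 CPM in either EpiSC line, so they were not among those tested. Cer1, Evx1, Cdx1 and Cdx2 were not analysed here.

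Of the 7 pluripotency markers, 2 had a rho above 0.3 with Ngfr, Nanog (0.36) and Pou5f1 (0.34). Given the chromosome 8 ratio the value of Nanog was 0.38 and that of Pou5f1 was 0.20, and given the ratios of chromosomes 2, 8, 11 and 19 they were 0.40 and 0.25. Nanog had a median of 428 CPM in the 41 cells above 5 CPM of Ngfr and 278 CPM in the other 39. For Pou5f1 it was 578 and 480 CPM. Both medians were higher in the cells with Ngfr. The list did not go with Ngfr as a set. Sox2 had a rho of 0.19, while Utf1 (−0.18) and Otx2 (−0.12) went the other way. Fgf5 (0.04) and Dnmt3b (0.01) were near 0, and the median of the list was 0.04.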

How the data were processed

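Members and gene lists were chosen with earlier results of these data known. The authors deposited raw read counts by gene for each cell, produced by STAR 2.7.3a on GRCm38.p6 and featureCounts 2.0.0 per the labels, and a normalized score for 23574 genes in 326 cells, sctransform output in whole numbers, used here as an alternative only. Reads carry no molecular identifiers, so intervals cover counting error only. All 384 columns were mapped to samples, 0 were left unused, and 0 groups of cells had identical counts. Of 31617 genes, 31565 matched GENCODE M21. Computed here with Python 3.11.15, numpy 2.4.6, pandas 2.3.3 and scipy 1.17.1 were CPM, summed CPM by line, Clopper-Pearson and conditional 95% intervals, and Spearman's rho over cells, with no test of any difference. Chromosome ratios capped a gene's relative value at 3. List folds added 0.1 CPM. Cells were sorted 1 to a well and no doublets were called. The rho function was checked on simulated data.

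Named genes were Ngfr, the 10 highest by rho off chromosome 11 and 5 on it, the 5 lowest, the 10 largest folds of AF32 over the highest other line, 5 protein-coding neighbours on each side, pathway members of at least 5 CPM in a line, and of other lists the 3 farthest rho values. Counts of cells with both Ngfr and another gene were added after values were seen. Values of some genes on the lists are not reported here.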

Additional observations from a re-analysis of the deposited data

How the results depend on the processing

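Under other depth limits, without cells with few detected genes or low Y-linked genes, with the deposited score, with counts outside chromosome 11 as denominator and with cells thinned to 1000000 counts, the share of AF32 cells above 5 CPM ran from 50.0% to 58.2%, rho with chromosome 8 from −0.41 to −0.33, and the share above 5 CPM from 80.0% to 92.0% with chromosome 11 but not 2, 8 or 19 raised, and from 33.3% to 45.2% with chromosome 2, 8 or 19 raised. The last 3 ranges include ratios without the cap and by the median over genes. Between 9 and 11 members of the pathway lists were past 2-fold. The fold over the highest other line ran from 23.3, with the deposited score, to 25.0. With cells of at least 4000000 counts, rho with chromosome 11 was 0.019 and 176 genes had a rho of at least 0.3. Within cells above 5 CPM of Ngfr it was 229 genes, over fewer cells. Given the ratio of chromosome 8 it was 54, and given those of chromosomes 2, 8, 11 and 19 it was 53, both chosen after the data were seen, as was rho with Ngfr above or not above 5 CPM, which gave 79. The other settings gave 72 to 134. Within cells above 5 CPM of Ngfr, rho was −0.021 for Prkar1a and −0.10 for Pigs, and changed sign in no other of the 20 named genes under any setting. Of their 340 values, 303 moved by less than 0.1. These include all 20 values at a minimum mean of 5 CPM and all 20 at 50 CPM. Those settings only choose which genes are counted and cannot change the rho of a gene. The genes with a rho of at most −0.3 numbered 29 given the ratio of chromosome 8 and 356 within cells above 5 CPM. Genes at least 10-fold above the highest other line were 5 with cells of at least 4000000 counts or a minimum of 20 CPM, and 1164 with no minimum. The causes were not tested. No paired analysis was possible because no result comes from a test and each EpiSC medium had 1 line. Counts of 1 to 3 cannot be told from none.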

Other observations

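The 4 Y-linked genes Ddx3y, Eif2s3y, Kdm5d and Uty all had a rho below 0 with Ngfr in AF32, with a median of −0.29.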
